A study of Mus musculus with 17 samples.

Results

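The genes described here are 34 genes of the ATF4 and unfolded protein response programmes, taken by name as 2 branches. The amino acid response branch held 20 genes and the ER chaperone branch held 14. All 34 were found among the 56748 genes of the count table, and all 34 were among the 15196 genes tested, with at least 39 counts in every library. RNA was sequenced from E11 cells, an established mouse podocyte line, cultured on silicone (polydimethylsiloxane) surfaces. Cells on HF met a highly fractal topography derived from tracings of healthy glomeruli (6 libraries). Cells on RT met a round, non-fractal topography (6 libraries), and cells on NT met a surface with no topography (5 libraries). The labels name RT and NT as the controls of HF, and the title of the series names podocyte maturation as its subject. All groups share the same cell line and the same silicone material, and no drug, stressor or genetic change is named for any of them. The time on the surfaces is not given, nor is what separates one replicate from another, so p-values describe the spread of these libraries alone, and that spread may be technical.

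Cells answer a shortage of amino acids, or of folding capacity in the endoplasmic reticulum (ER), through partly separate transcription programmes. Kinases that phosphorylate the initiation factor eIF2 slow protein synthesis while the mRNA of the transcription factor ATF4 is translated more, and ATF4 then raises genes for amino acid synthesis, transport and feedback control. The sensors IRE1, through XBP1, and ATF6 raise the chaperones and disulfide enzymes of the ER lumen. ATF4 and ATF5 are controlled in large part at translation and XBP1 by splicing, which counts per gene do not measure. ER stress is a recognised feature of injured podocytes, which make and fold large amounts of slit diaphragm and basement membrane protein.

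Counts were scaled to the size of each library (counts-per-million, CPM), and every p-value below comes from edgeR's quasi-likelihood F test. It is adjusted by Benjamini-Hochberg over all 15196 genes, with a threshold of 0.05, unless a sentence says otherwise. Log2 fold changes are the first surface named over the second, with their standard error (SE). Total counts ran from 16.2 to 17.8 M in HF, from 15.7 to 24.1 M in RT and from 14.9 to 18.6 M in NT. Of 9 podocyte markers, 6 were high enough to be tested, while Ptpro and Plce1 averaged under 1 CPM. Nphs1, the slit diaphragm protein nephrin, averaged 5.03 CPM in HF, 4.66 CPM in RT and 3.96 CPM in NT, while Synpo, the actin-associated podocyte protein synaptopodin, averaged 263, 274 and 282 CPM on the same surfaces. All 5 endothelial markers and 5 of 6 immune markers averaged under 1 CPM, with Kdr, Adgre1 and Cd3e at 0 in every library.

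The DNA at the gene starts of both branches was searched for the elements their regulators are known to bind. RefSeq windows from 250 bases before to 50 bases after a gene's start were matched for 30 of the 34 genes, as 33 windows, on the assembly GRCm38.p6. They were searched on both strands for TGATGNAA, the core of the element that ATF4 dimers bind, for the ER stress response element (CCAAT, 9 free bases, CCACG), and for TGACGTGG, the core of the unfolded protein response element. TGATGNAA lay in windows of 6 of 18 amino acid response genes with a window (Asns, Chac1, Nupr1, Slc7a11, Trib3 and Vldlr) and of 1 of 12 ER chaperone genes (Herpud1), against 4.51% of all 27025 genes with a window (3.97% of 32851 windows). The ER stress response element lay in windows of 7 of 12 ER chaperone genes (Calr, Canx, Creld2, Dnajc3, Hsp90b1, Hspa5 and Pdia6) and of 0 of 18 amino acid response genes, against 0.137% of all genes (0.119% of windows). TGACGTGG lay in windows of 0 of 30 of these genes, against 0.714% of all genes (0.676% of windows). No 2 matches in the windows of these genes overlapped. A match describes these letters only, and a window without one says nothing about the factor.

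The windows shown here are of Asns, Vldlr, Hspa5, Calr and Atf5, each 5′ to 3′ on the strand of its gene, with motif letters in capitals. Of the other members called in a comparison, Psph has a window without a motif and Eif4ebp1 has no window. Asns (chr6:7693160-7693459, minus strand) and Vldlr (chr19:27216770-27217069, plus strand, the second of 2 annotated starts) carry the ATF4 core, in Vldlr on the opposite strand. Hspa5 (chr2:34771840-34772139, plus strand) and Calr (chr8:84846882-84847181, minus strand) carry the ER stress response element, in Calr on the opposite strand. Atf5, the member called in both comparisons with NT under every setting, has 2 annotated starts (chr7:44815609-44815908 and chr7:44816609-44816908, minus strand), and neither window holds one of the 3 motifs.
Asns: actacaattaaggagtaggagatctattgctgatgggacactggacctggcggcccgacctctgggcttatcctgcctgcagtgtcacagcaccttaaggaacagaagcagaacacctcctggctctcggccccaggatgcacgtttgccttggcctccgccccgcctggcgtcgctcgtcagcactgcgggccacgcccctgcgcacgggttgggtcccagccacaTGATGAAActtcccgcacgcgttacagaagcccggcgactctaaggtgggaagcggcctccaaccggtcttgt
Vldlr: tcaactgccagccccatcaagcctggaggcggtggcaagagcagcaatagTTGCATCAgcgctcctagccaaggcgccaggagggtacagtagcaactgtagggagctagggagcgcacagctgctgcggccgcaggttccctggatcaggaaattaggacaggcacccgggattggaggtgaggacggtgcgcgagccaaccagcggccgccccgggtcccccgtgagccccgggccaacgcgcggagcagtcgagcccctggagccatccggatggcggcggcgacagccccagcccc
Hspa5: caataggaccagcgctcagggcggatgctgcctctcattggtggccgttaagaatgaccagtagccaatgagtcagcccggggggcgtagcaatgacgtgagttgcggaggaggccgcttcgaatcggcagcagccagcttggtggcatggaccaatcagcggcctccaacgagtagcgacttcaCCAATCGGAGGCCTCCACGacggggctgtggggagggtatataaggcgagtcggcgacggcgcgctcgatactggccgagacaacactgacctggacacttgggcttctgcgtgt
Calr: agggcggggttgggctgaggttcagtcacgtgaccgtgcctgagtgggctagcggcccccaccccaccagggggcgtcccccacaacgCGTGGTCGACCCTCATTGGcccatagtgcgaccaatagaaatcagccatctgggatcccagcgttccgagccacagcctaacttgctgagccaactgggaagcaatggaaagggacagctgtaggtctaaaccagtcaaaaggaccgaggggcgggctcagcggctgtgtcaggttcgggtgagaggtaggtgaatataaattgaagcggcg
Atf5, lower coordinates: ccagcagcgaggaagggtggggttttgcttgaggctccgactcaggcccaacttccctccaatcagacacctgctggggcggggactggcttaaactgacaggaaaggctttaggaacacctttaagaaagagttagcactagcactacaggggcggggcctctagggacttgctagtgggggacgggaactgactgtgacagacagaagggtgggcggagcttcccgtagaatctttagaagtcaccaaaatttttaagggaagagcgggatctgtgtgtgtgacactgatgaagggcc
Atf5, higher coordinates: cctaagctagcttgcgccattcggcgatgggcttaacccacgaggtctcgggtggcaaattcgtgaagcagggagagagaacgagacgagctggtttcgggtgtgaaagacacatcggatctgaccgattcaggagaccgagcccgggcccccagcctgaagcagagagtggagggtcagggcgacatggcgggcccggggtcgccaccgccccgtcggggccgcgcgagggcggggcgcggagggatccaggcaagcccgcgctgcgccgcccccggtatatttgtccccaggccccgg

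The expression level of a gene can be compared with another's only per length, and on that scale the members spanned a wide range. Levels here are the mean of the 3 surface means. Atf5 stood at 238 CPM per kilobase of exon, followed by Calr at 226, Hsp90b1 at 194 and Hspa5 at 162 CPM per kilobase. Atf4 stood at 122 CPM per kilobase and its partner and target Ddit3 (CHOP) at 44.8 CPM per kilobase. Slc7a11, the cystine transporter, was the lowest at 0.207 CPM per kilobase, with a mean of 3.13 CPM in HF, 2.81 CPM in RT and 2.72 CPM in NT. Next above it stood Atf6 at 11.1 and Trib3 at 11.4 CPM per kilobase. Within a surface the libraries lay close together: for Hspa5 the coefficient of variation was 1.90% in HF, 1.49% in RT and 4.12% in NT, and for Atf4 it was 3.82%, 2.62% and 8.80% in the same order.

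**Figure D1:**
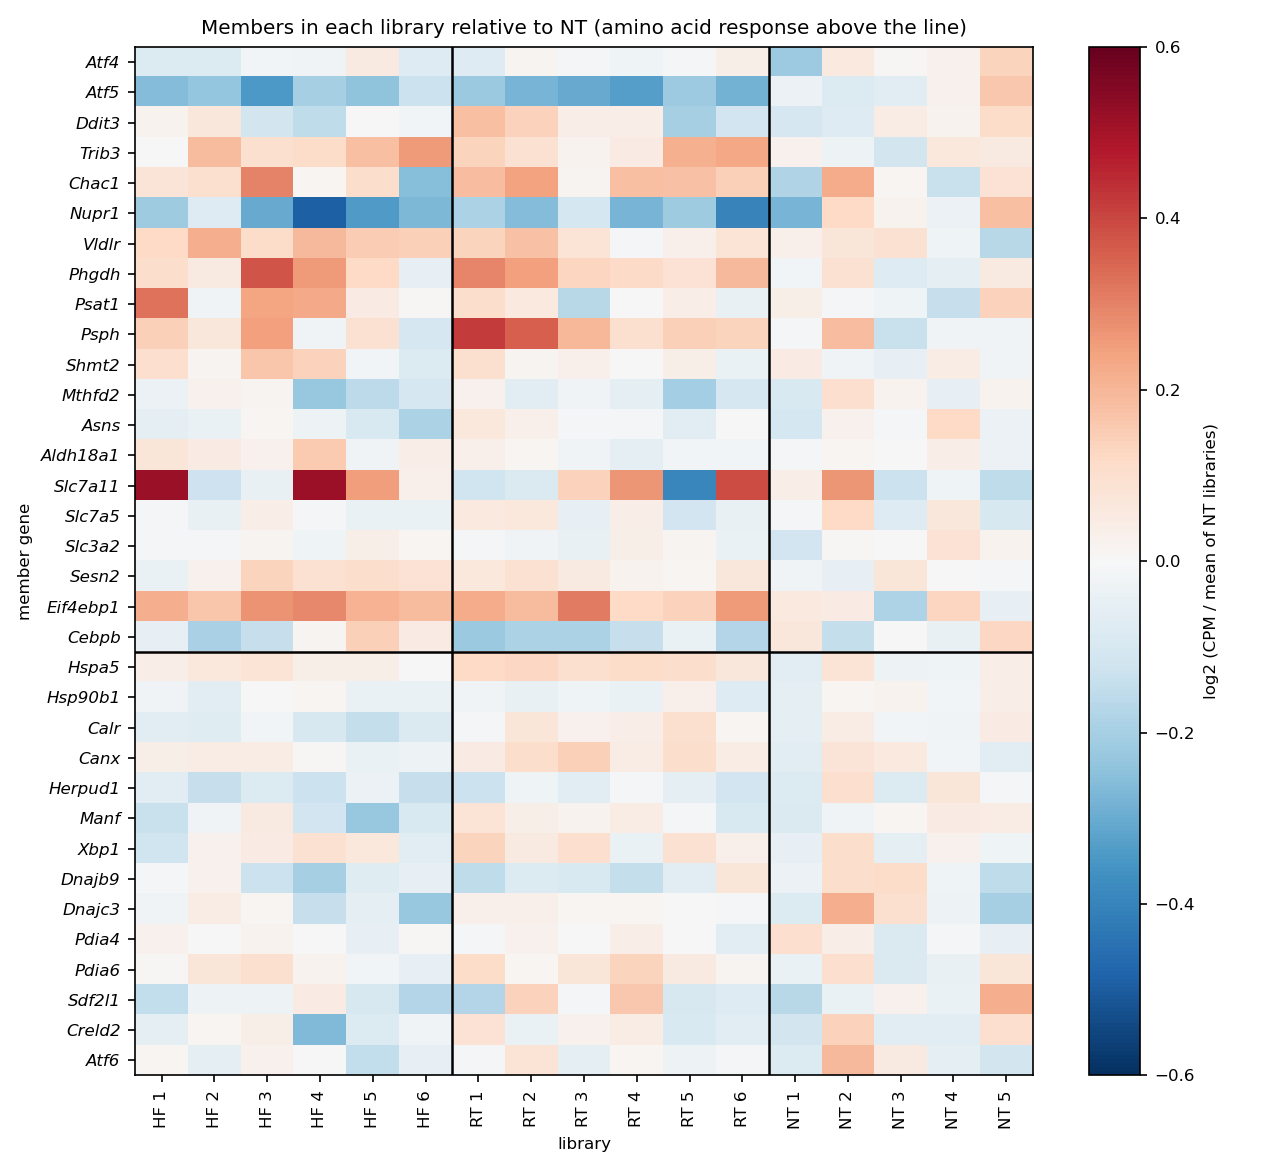
Each member gene (rows) in each library (columns, HF then RT then NT), as log2 of its CPM over the mean of the NT libraries, from blue (lower) to red (higher). Atf5 is blue in all 6 HF and all 6 RT libraries, Eif4ebp1 is red in them, and most other rows hold both colours within a surface.

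On the fractal surface, 3 of the 34 genes differed from cells without topography: Vldlr rose by 11.1%, Eif4ebp1 rose by 16.5% and Atf5 fell by 15.1%. These calls all lay in the amino acid response branch (3 of 20), and 0 of 14 ER chaperone genes passed. Across all genes tested, 2.33% passed in this comparison, 1.5% higher and 0.829% lower. By unadjusted p under 0.05, 9 of 34 members passed, 26.5% against 14.2% of all genes. Of the ER chaperone branch 2 members did so by unadjusted p, while DESeq2 (4.2% of its genes called) and limma voom (2.13% called) called 0 of the 14. The libraries of the surfaces did not overlap for 3 of 34 members, 8.82% against 2.18% of all genes. In bulk RNA, fewer cells with a transcript and less of it per cell cannot be told apart.

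The round surface against no topography gave the same number of calls. Psph and Eif4ebp1 rose and Atf5 fell, again 3 of 20 amino acid response genes and 0 of 14 ER chaperone genes, where 3.97% of all genes passed, 2.53% higher and 1.44% lower. By unadjusted p, 9 of 34 members passed, 26.5% against 17.1% of all genes. The libraries did not overlap for 1 member, Atf5, which is 2.94% of the members against 3.4% of all genes. In the ER chaperone branch, unadjusted p passed 2 genes, Hspa5 and Canx. DESeq2 (6.08% of its genes called) and limma voom (3.84% called) each called 1, which was Hspa5. The comparisons of HF and of RT with NT share the 5 NT libraries, so their values are set side by side below and their likeness is not read as a result.

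Between the topographies themselves, HF against RT, edgeR called 0 of the 34 members, where 0.211% of all genes passed. By unadjusted p, 7 of 34 members passed, 20.6% against 8.0% of all genes. Of these, 4 were chaperones with negative log2 fold changes (Calr, Canx, Hspa5 and Manf). DESeq2, which called 0.553% of all genes, called 1 member, Calr, and limma voom, which called 0.211%, called 0. The libraries did not overlap for Calr alone, 2.94% of members against 0.967% of all genes.

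**Figure D2:**
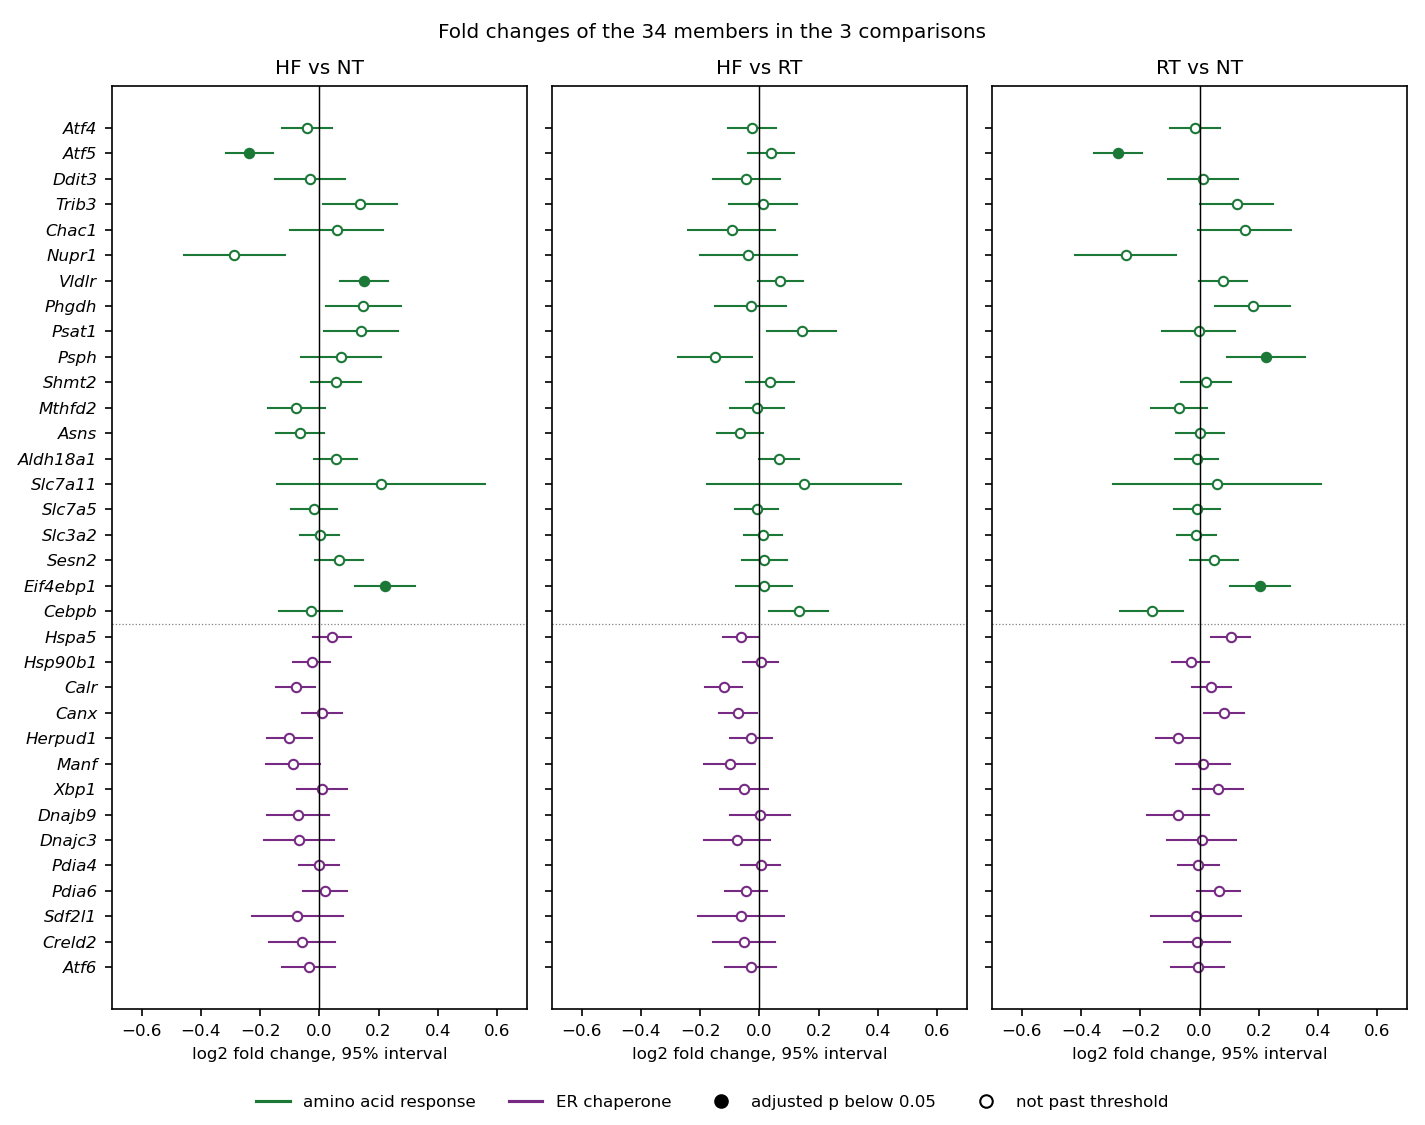
Log2 fold change (x axis) of each of the 34 members (y axis) with its 95% interval for HF over NT, HF over RT and RT over NT, with the amino acid response branch in green above and the ER chaperone branch in purple below. Filled points passed adjusted p 0.05: Atf5, Vldlr and Eif4ebp1 in HF against NT, Atf5, Psph and Eif4ebp1 in RT against NT, and none in HF against RT.

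Among the regulators, Atf4 itself did not pass in any comparison. It had 274, 280 and 301 CPM in HF (lowest, median and highest of 6), against 275, 288 and 297 CPM in RT and 249, 302, 291, 295 and 318 CPM in the NT libraries. The libraries of all surfaces overlapped, and the NT libraries spread widest. In log2 terms the fold change was -0.041 ± 0.042 for HF against NT (SE, adjusted p = 0.731), with a 95% interval of -0.13 to 0.044. It was -0.025 ± 0.040 for HF against RT (adjusted p = 0.949) and -0.016 ± 0.042 for RT against NT (adjusted p = 0.903).

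Atf5, a transcription factor related to ATF4 and raised with it under stress, fell on both topographies. It had 417, 450 and 485 CPM in HF and 421, 436 and 455 CPM in RT, against 517, 500, 507, 539 and 592 CPM in NT. Every HF and every RT library lay below every NT library. Its mean was 451 ± 22.2 CPM in HF and 439 ± 13.4 CPM in RT (SD, n = 6 each), against 531 ± 37.1 CPM in NT (SD, n = 5). On the log2 scale the change was -0.24 ± 0.039 for HF against NT (SE, adjusted p = 0.000474) and -0.28 ± 0.039 for RT against NT (SE, adjusted p = 3.07e-05). HF fell by 15.1% and RT fell by 17.4%, and HF against RT did not pass (log2 fold change 0.039 ± 0.038, adjusted p = 0.879, 95% interval -0.037 to 0.12). Both calls held in all 18 alternative settings in which each was tested (highest adjusted p 0.00491 for HF and 0.000214 for RT). Of its exonic length, 4.11% overlaps Nup62 and Il4i1 in libraries without strand. Nup62 had a log2 fold change of 0.045 in HF against NT (adjusted p = 0.743) and Il4i1 averaged 0.608 CPM.

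Eif4ebp1, which encodes the translation repressor 4E-BP1 and is an ATF4 target, rose on both topographies. It had 50, 51.6 and 54.3 CPM in HF and 48.3, 51.4 and 55.3 CPM in RT, against 46.3, 46.1, 39.2, 48.6 and 43.0 CPM in NT. Each of the 6 HF libraries exceeded each NT library, as did 5 of 6 RT libraries. This gave a log2 fold change of 0.22 ± 0.050 for HF against NT (SE, adjusted p = 0.0111) and 0.20 ± 0.050 for RT against NT (SE, adjusted p = 0.0127). Both calls ended without NT 3, the lowest library (adjusted p = 0.0621 for HF and 0.0764 for RT), and held in the other 17 settings (adjusted p down to 0.00160 and 0.00344). HF against RT gave 0.016 ± 0.047 (adjusted p = 0.978).

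Vldlr, the very low density lipoprotein receptor, whose gene is induced by ATF4 under ER stress, rose on the fractal surface. It had 166, 170 and 179 CPM in HF and 153, 163 and 174 CPM in RT, against 157, 162, 164, 151 and 137 CPM in NT. Each HF library exceeded each NT library, whereas those of RT overlapped with both. Its log2 fold change was 0.15 ± 0.040 for HF against NT (SE, adjusted p = 0.0311), 0.080 ± 0.040 for RT against NT (adjusted p = 0.297) and 0.071 ± 0.038 for HF against RT (adjusted p = 0.662). The HF call ended without NT 4 (adjusted p = 0.0821), NT 5 (0.0653), HF 2 (0.0715), HF 4 (0.0850) or HF 5 (0.0563), and when RT was left out of the fit (0.0669). Over all alternatives its adjusted p ran from 0.00605 to 0.0850.

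Ddit3, the pro-apoptotic partner of ATF4, had 69.2, 76.5 and 80.7 CPM in HF and 67.0, 79.1 and 87.2 CPM in RT, against 71.8, 73.0, 79.4, 78.0 and 82.9 CPM in NT. The surfaces overlapped throughout. Its log2 fold change was -0.032 ± 0.058 for HF against NT (adjusted p = 0.866, 95% interval -0.15 to 0.087), -0.045 ± 0.055 for HF against RT (adjusted p = 0.918) and 0.013 ± 0.058 for RT against NT (adjusted p = 0.948). Of its exonic length 10.86% overlaps other genes in libraries without strand, among them Mars, the methionyl-tRNA synthetase. Mars had a log2 fold change of -0.081 in HF against NT (adjusted p = 0.249) and 0.028 in HF against RT (adjusted p = 0.909). In RT against NT it had -0.109 (adjusted p = 0.0635).

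Trib3, a pseudokinase that restrains ATF4, had 22.8, 25.2 and 27.2 CPM in HF and 23.1, 24.7 and 26.8 CPM in RT, against 23.2, 22.3, 21.1, 23.8 and 23.7 CPM in NT. Of the topography libraries, 5 HF and 4 RT libraries lay above every NT library. The log2 fold changes of 0.14 ± 0.061 for HF against NT (adjusted p = 0.278) and 0.13 ± 0.061 for RT against NT (adjusted p = 0.279) did not pass. HF against RT gave 0.012 ± 0.057 (adjusted p = 0.982).

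Nupr1, a stress-induced chromatin protein, was picked out after its values were seen, since its log2 fold change in HF against NT was the largest of the 34 in size. It had 108, 124 and 144 CPM in HF and 115, 129 and 141 CPM in RT, against 125, 165, 154, 148 and 172 CPM in NT. NT 1 lay among the topography libraries, and the other 4 NT libraries lay above all of them. The log2 fold change of -0.29 ± 0.080 for HF against NT (SE, adjusted p = 0.0793) and of -0.25 ± 0.080 for RT against NT (SE, adjusted p = 0.106) did not pass. Without NT 1 both passed (adjusted p = 0.00669 for HF and 0.0116 for RT). DESeq2 called it in both (adjusted p = 0.00330 and 0.0117), and without HF 2 it passed in HF against NT (adjusted p = 0.0319). Over all alternatives the adjusted p ran up to 0.175 for HF and 0.203 for RT.

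The other regulators did not pass in any comparison by edgeR fitted to all libraries with the low-count filter and surface as the only term. Chac1, which degrades glutathione, averaged 21.6 ± 2.60 CPM in HF, 23.1 ± 1.17 CPM in RT and 20.8 ± 2.40 CPM in NT. Sesn2, a leucine sensor that restrains mTORC1, averaged 61.3 ± 2.61 CPM in HF, 60.6 ± 1.18 CPM in RT and 58.5 ± 1.83 CPM in NT. Cebpb, a transcription factor that partners with ATF4, averaged 73.5 ± 6.34 CPM in HF, 67.0 ± 3.04 CPM in RT and 75.0 ± 5.33 CPM in NT. Its log2 fold change in RT against NT was -0.16 ± 0.052 (adjusted p = 0.0728). It passed without NT 2 (adjusted p = 0.0239), without RT 5 (0.0369) and with low genes kept (0.0167), and its adjusted p ran up to 0.158 over the alternatives. Of its exonic length 20.74% overlaps Tmem189.

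**Figure D3:**
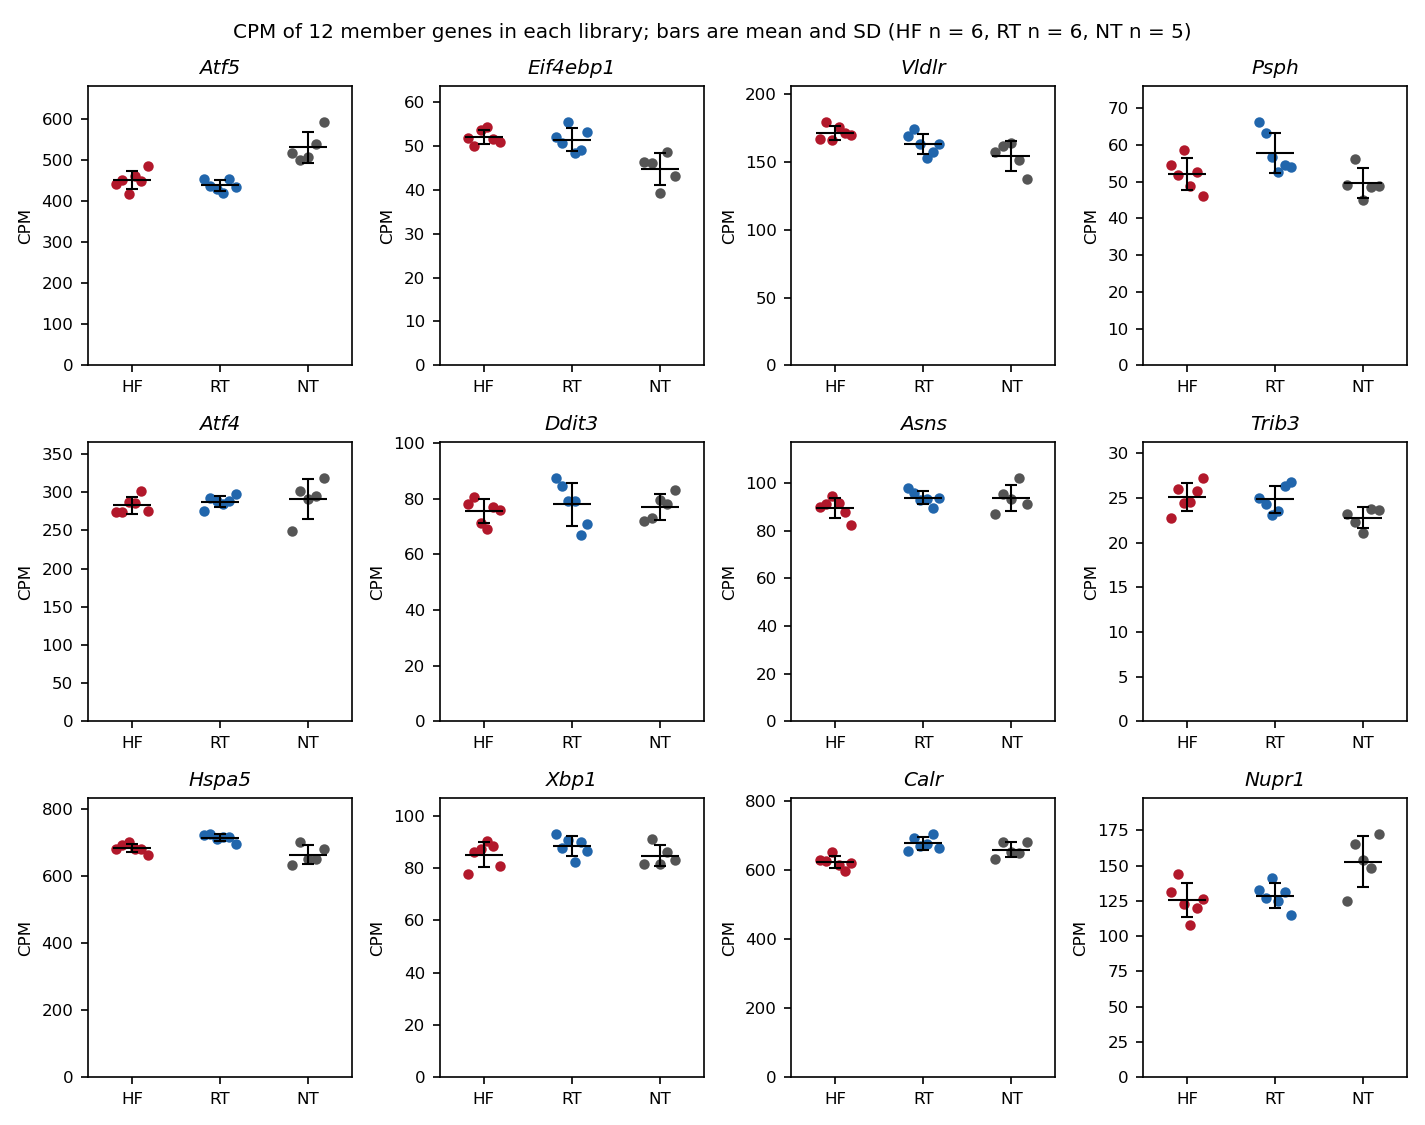
CPM (y axis, from 0) of 12 member genes in each library, as points, by surface (HF and RT with 6 libraries each, NT with 5), with mean and SD as bars. Atf5 separates both topographies from NT and Vldlr and Eif4ebp1 separate HF from NT, while Atf4, Ddit3, Asns and Xbp1 overlap on all surfaces.

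Of 7 amino acid and one-carbon synthesis genes, 0 passed in HF against NT and HF against RT (2.33% and 0.211% of all genes). In RT against NT 1 of the 7 was called, 14.3% against 3.97% of all genes. That call was Psph, the last enzyme of serine synthesis, which rose on the round surface. It had 46.0, 52.2 and 58.6 CPM in HF and 52.7, 55.6 and 66.1 CPM in RT, against 49.0, 56.2, 45, 48.6 and 48.7 CPM in NT. Of the RT libraries, 3 lay above every NT library, and RT 1 and RT 2 were the highest. In log2 terms the fold change was 0.22 ± 0.065 for RT against NT (SE, adjusted p = 0.0486), 0.074 ± 0.065 for HF against NT (adjusted p = 0.676) and -0.15 ± 0.061 for HF against RT (adjusted p = 0.490). The RT call ended without NT 1 (adjusted p = 0.0943), NT 3 (0.148), NT 4 (0.105), NT 5 (0.0948), RT 1 (0.103), RT 2 (0.105) or RT 3 (0.0754), and by limma voom (0.0505). Its lowest adjusted p over the alternatives was 0.000480. Of its exonic length 10.44% overlaps Cct6a, whose log2 fold change in RT against NT was 0.041 (adjusted p = 0.598).

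The upstream enzymes of the serine pathway did not pass by edgeR with the low-count filter and all libraries. Phgdh, its first enzyme, averaged 287 ± 30.6 CPM in HF and 293 ± 16.5 CPM in RT (SD, n = 6 each), against 259 ± 12.9 CPM in NT (SD, n = 5). Of these, 4 HF and 5 RT libraries lay above every NT library, and the log2 fold changes of 0.15 ± 0.060 for HF against NT (adjusted p = 0.248) and 0.18 ± 0.060 for RT against NT (adjusted p = 0.118) did not pass. With low genes kept in the fit both passed (adjusted p = 0.00844 and 0.000380). In RT against NT Phgdh also passed by DESeq2 (adjusted p = 0.0372) and with HF left out of the fit (0.0127). Its adjusted p ran up to 0.437 for HF and 0.255 for RT. Psat1, the second enzyme, averaged 53.8 ± 5.44 CPM in HF, 48.8 ± 3.15 CPM in RT and 48.8 ± 3.43 CPM in NT, and its largest log2 fold change was 0.14 ± 0.057, for HF against RT (adjusted p = 0.466). Phgdh and Psat1 were singled out after their values were seen.

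Asns, asparagine synthetase and a standard readout of ATF4 activity, did not pass in any comparison. It had 82.3, 90.6 and 94.5 CPM in HF and 89.8, 93.6 and 97.9 CPM in RT, against 87.2, 95.4, 93.4, 102 and 91.4 CPM in NT. The surfaces overlapped. On the log2 scale the change was -0.065 ± 0.040 for HF against NT (adjusted p = 0.491, 95% interval -0.15 to 0.016), -0.066 ± 0.038 for HF against RT (adjusted p = 0.702) and 0.001 ± 0.040 for RT against NT (adjusted p = 0.994).

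The remaining synthesis genes and the transporters did not pass in any setting. The mitochondrial folate enzymes Shmt2 and Mthfd2 averaged 83.1 ± 5.56 and 68.2 ± 4.66 CPM in HF, 81.2 ± 2.51 and 68.6 ± 3.61 CPM in RT, and 79.9 ± 2.46 and 72.0 ± 3.65 CPM in NT. Aldh18a1, the first enzyme of proline synthesis, averaged 89.4 ± 3.79 CPM in HF, 85.5 ± 1.78 CPM in RT and 86.1 ± 1.63 CPM in NT. Slc7a5 and Slc3a2, the chains of the large neutral amino acid transporter, averaged 264 ± 5.86 and 452 ± 7.21 CPM in HF, 266 ± 12.9 and 448 ± 9.73 CPM in RT, and 268 ± 17.2 and 452 ± 22.1 CPM in NT. Their log2 fold changes lay between -0.019 and 0.012 in the 3 comparisons. Slc7a11 was too low to be measured closely, and its 95% interval for HF against NT ran from -0.14 to 0.56.

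In the ER chaperone branch no gene passed in any of the 3 comparisons by edgeR fitted to all libraries with the low-count filter and surface as the only term. Hspa5 (BiP), the main chaperone of the ER lumen and a standard readout of ER stress, had 664, 681 and 702 CPM in HF and 695, 716 and 724 CPM in RT, against 634, 702, 650, 652 and 682 CPM in NT. Of the RT libraries 5 lay above every NT library, and 5 of 6 HF libraries lay below every RT library. This gave a log2 fold change of 0.11 ± 0.032 for RT against NT (SE, adjusted p = 0.0542), 0.043 ± 0.032 for HF against NT (adjusted p = 0.600) and -0.062 ± 0.030 for HF against RT (adjusted p = 0.606). In RT against NT it passed by DESeq2 (adjusted p = 0.00251), by limma voom (0.0317), without NT 2 (0.0240) and without NT 5 (0.0184), over a range of up to 0.136. Its 95% interval there was 0.040 to 0.17.

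Calr, the calcium-binding lectin chaperone calreticulin, was singled out after its values were seen. It had 595, 622 and 650 CPM in HF and 655, 672 and 702 CPM in RT, against 631, 679, 650, 648 and 680 CPM in NT. Every HF library lay below every RT library, while NT overlapped with both. The log2 fold change of -0.12 ± 0.031 for HF against RT did not pass (SE, adjusted p = 0.0994). It passed by DESeq2 (adjusted p = 0.00458), without HF 3 (0.0440), with low genes kept (0.0361) and with NT left out of the fit (0.0162), and over all alternatives its adjusted p ran up to 0.315. HF against NT gave -0.080 ± 0.032 (adjusted p = 0.221) and RT against NT 0.040 ± 0.032 (adjusted p = 0.598).

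The other chaperones and co-chaperones did not pass in any setting. Canx, the membrane-bound partner of calreticulin, averaged 566 ± 15 CPM in HF, 595 ± 17.2 CPM in RT and 562 ± 26.0 CPM in NT, and Hsp90b1 (GRP94) averaged 779 ± 15.5, 777 ± 19.2 and 793 ± 19.9 CPM on the same surfaces. The log2 fold change of Canx for HF against RT was -0.073 ± 0.032 (adjusted p = 0.529). Manf, a secreted ER stress protein, averaged 65.5 ± 4.43 CPM in HF, 70.3 ± 2.86 CPM in RT and 69.7 ± 2.66 CPM in NT. Other genes overlap 15.67% of the exonic length of Hsp90b1 and 9.25% of that of Manf, in libraries without strand. Dnajb9, a co-chaperone of BiP and a target of spliced XBP1, averaged 48.5 ± 2.75 CPM in HF, 48.4 ± 2.81 CPM in RT and 51.0 ± 3.86 CPM in NT. Dnajc3, which also inhibits eIF2 kinases, averaged 161 ± 11.1 CPM in HF, 170 ± 1.38 CPM in RT and 169 ± 19.2 CPM in NT. Sdf2l1, a partner of the ER DnaJ proteins, averaged 17.2 ± 1.00 CPM in HF, 18 ± 1.70 CPM in RT and 18.1 ± 1.78 CPM in NT.

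Disulfide and quality control genes and the ER stress transcription factors did not pass either. The disulfide isomerases Pdia4 and Pdia6 averaged 210 ± 3.94 and 288 ± 11.1 CPM in HF, 210 ± 5.54 and 297 ± 9.94 CPM in RT, and 210 ± 10.9 and 284 ± 15.9 CPM in NT. Creld2, an ER stress-induced protein with disulfide isomerase activity, averaged 41.9 ± 3.05 CPM in HF, 43.5 ± 2.07 CPM in RT and 43.8 ± 3.39 CPM in NT. Herpud1, a membrane protein of ER-associated degradation, averaged 123 ± 3.39 CPM in HF, 126 ± 3.96 CPM in RT and 133 ± 8.02 CPM in NT. Its HF against NT log2 fold change of -0.10 ± 0.037 did not pass (adjusted p = 0.160).

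Xbp1, whose mRNA is spliced by IRE1, had 77.8, 86.8 and 90.2 CPM in HF and 82.3, 88.9 and 92.8 CPM in RT, against 81.7, 91.0, 81.4, 86.0 and 83.1 CPM in NT. The surfaces overlapped. Its log2 fold change was 0.010 ± 0.042 for HF against NT (adjusted p = 0.953, 95% interval -0.076 to 0.095), -0.052 ± 0.040 for HF against RT (adjusted p = 0.811) and 0.062 ± 0.042 for RT against NT (adjusted p = 0.497). Atf6, the membrane-bound sensor that becomes a transcription factor on cleavage, averaged 101 ± 4.56 CPM in HF, 103 ± 3.60 CPM in RT and 103 ± 9.36 CPM in NT.

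Set against each other, the branches differed in their medians by small amounts. In HF against NT, 12 of 20 amino acid response genes had a positive log2 fold change with a median of 0.056, and 4 of 14 ER chaperone genes did with a median of -0.048, beside -0.003 over all genes. In HF against RT, the medians were 0.012 for the amino acid response branch (11 of 20 positive) and -0.052 for the ER chaperone branch (3 of 14 positive), beside -0.001 over all genes. In RT against NT, they were 0.007 (11 of 20 positive) and 0.001 (7 of 14 positive), beside -0.002. These are descriptions with no test of the branches.

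Per library, the mean log2 CPM of the amino acid response genes was 6.41 ± 0.030 in HF, 6.40 ± 0.031 in RT and 6.38 ± 0.037 in NT. That of the ER chaperone genes was 7.27 ± 0.033 in HF, 7.32 ± 0.019 in RT and 7.31 ± 0.052 in NT (SD, n = 6, 6 and 5). Taking the second from the first within each library gave -0.87 ± 0.033 in HF, -0.93 ± 0.035 in RT and -0.93 ± 0.030 in NT. The highest differences, those nearest 0, were in HF 5 (-0.836), HF 4 (-0.838) and HF 1 (-0.847), above every RT and NT library, and the other 3 HF libraries lay among them. Of the 7 genes whose window holds the ER stress response element, 6 had a negative log2 fold change in HF against RT (median -0.062). So did 11 of the 14 genes of the branch and 7659 of all 15196 genes. In HF against NT 4 of the 7 were negative (median -0.026), and in RT against NT 5 were positive (median 0.04). Of the 7 genes with the ATF4 core, 4 were positive in HF against NT (median 0.058), 3 in HF against RT (-0.029) and 5 in RT against NT (0.059).

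**Figure D4:**
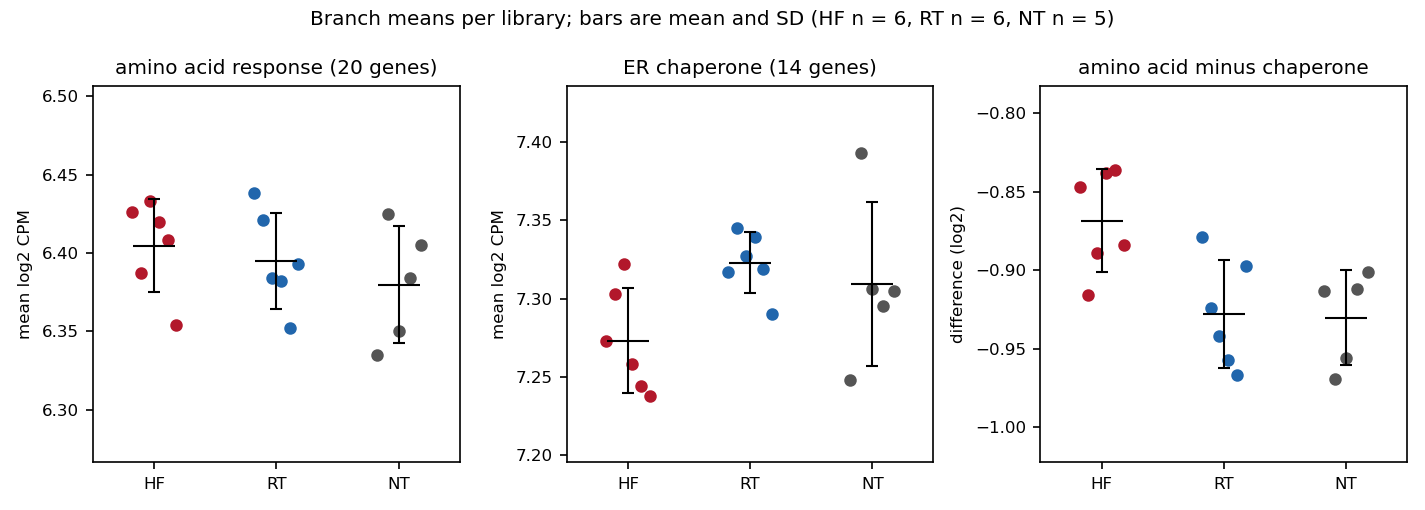
Mean log2 CPM per library (points) of the 20 amino acid response genes and of the 14 ER chaperone genes, and the difference of the means, by surface, with mean and SD as bars, on axes that do not start at 0. In the right panel 3 of the 6 HF libraries lie above all RT and NT libraries, and the means are -0.87, -0.93 and -0.93.

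Other genes of these pathways were counted from lists apart from the 34 genes. These lists were also chosen with earlier results of these data known, so their counts are not independent support. Of 17 tested further ATF4-linked genes, 2 rose and 0 fell in HF against NT and in RT against NT, and 0 passed in HF against RT (1 by unadjusted p, 0 by DESeq2 or limma voom). This was 11.8% of the list in each comparison with NT, against 2.33% of all genes for HF and 3.97% for RT. By unadjusted p, 7 of the 17 passed in HF against NT (41.2%, against 14.2% of all genes) and 9 in RT against NT (52.9%, against 17.1%). DESeq2 called 4 and 3 in these comparisons, and limma voom 2 in each. The genes that rose were Aldh1l2, a mitochondrial folate enzyme, and Gdf15, a secreted stress hormone. Aldh1l2 had 71.7, 77.0 and 80.2 CPM in HF and 65.0, 71.0 and 83.7 CPM in RT, against 67.9, 63.8, 63.8, 60.9 and 56.2 CPM in NT. Each HF library exceeded each NT library. Its log2 fold change was 0.29 ± 0.053 for HF against NT (SE, adjusted p = 0.00137) and 0.22 ± 0.053 for RT against NT (SE, adjusted p = 0.0106).

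Gdf15 had 91.2, 98.2 and 105 CPM in HF and 102, 106 and 115 CPM in RT, against 65.9, 80.2, 86.2, 89.5 and 89.2 CPM in NT. All libraries of both topographies lay above all NT libraries. In log2 terms the fold change was 0.25 ± 0.059 for HF against NT (SE, adjusted p = 0.0238) and 0.38 ± 0.058 for RT against NT (SE, adjusted p = 0.000405). The HF call ended without NT 2 (adjusted p = 0.0753), HF 3 (0.0576), HF 4 (0.0583) or HF 5 (0.0528), with RT left out of the fit (0.0656) and with the libraries numbered 6 left out (0.0547). Over all alternatives the adjusted p ran from 1.49e-06 to 0.0753 for HF.

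Of 20 further ER folding genes, 2 rose in RT against NT (10% of the list, against 3.97% of all genes called in either direction) and 0 passed in HF against NT or HF against RT. Sec61a1, the channel of the ER translocon, averaged 171 ± 4.18 CPM in RT and 156 ± 3.80 CPM in NT (log2 fold change 0.14 ± 0.033, adjusted p = 0.0127). Pdia5, a disulfide isomerase, averaged 16.2 ± 0.796 CPM in RT and 13.3 ± 1.65 CPM in NT (log2 fold change 0.28 ± 0.085, adjusted p = 0.0493). The Pdia5 call ended without NT 1, NT 2 or NT 3 or without any 1 RT library (adjusted p from 0.0525 to 0.159), and with HF left out of the fit (0.0519). Its lowest adjusted p over the alternatives was 0.0137. By unadjusted p, 5 of the 20 passed in HF against NT (25%, against 14.2% of all genes), 3 in HF against RT (15%, against 8%) and 5 in RT against NT (25%, against 17.1%). DESeq2 and limma voom called 0 in both HF comparisons, and 3 and 2 in RT against NT.

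The remaining pathway lists gave no calls in any comparison by edgeR with the low-count filter, all libraries and surface as the only term. These were 0 of 7 eIF2 kinase and phosphatase genes and 0 of 7 ER stress sensor and protease genes. Next came 0 of 21 aminoacyl-tRNA synthetase and tRNA export genes, 0 of 14 ER-associated degradation genes and 0 of 12 cytosolic heat shock genes. Of all genes, 2.33% passed in HF against NT, 0.211% in HF against RT and 3.97% in RT against NT. By unadjusted p, HF against NT passed 1, 1, 2, 0 and 1 genes of these lists in that order, HF against RT 0, 1, 1, 0 and 0, and RT against NT 1, 0, 4, 2 and 3. The highest share of a list was 14.3% in HF against NT, 14.3% in HF against RT and 25% in RT against NT. Over all genes the shares were 14.2%, 8.0% and 17.1% in the same order. DESeq2, which called 6.08% of its genes in RT against NT, called 2 of the 21 there and none of the rest, and limma voom called none.

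Markers of other cells were read beside these results. Wt1, a podocyte transcription factor, averaged 103 ± 5.22 CPM in HF and 96.9 ± 2.96 CPM in RT, against 115 ± 3.02 CPM in NT (adjusted p = 0.0113 for HF and 6.16e-05 for RT). The 6 tested podocyte markers did not share 1 direction. Their log2 fold changes ran from -0.161 to 0.514 in HF against NT (2 positive) and from -0.243 to 0.23 in RT against NT (2 positive). In HF against RT they ran from -0.175 to 0.705 (4 positive). Acta2, smooth muscle actin, averaged 364 ± 42.2 CPM in HF and 363 ± 23.5 CPM in RT, against 261 ± 36.7 CPM in NT (adjusted p = 0.0171 for HF and 0.0121 for RT). The HF call of Acta2 ended with RT left out of the fit (adjusted p = 0.0749, range over the alternatives 7.47e-05 to 0.0749). By edgeR with all libraries, the low-count filter and surface as the only term, they were the only calls among these markers in HF against NT and, with Tagln, in RT against NT, and 0 passed in HF against RT (DESeq2 and the fit with NT left out each called 2 podocyte markers there, and limma voom 0). Tagln, an actin-binding smooth muscle protein, averaged 5.44 ± 0.345 CPM in RT and 4.09 ± 0.502 CPM in NT (adjusted p = 0.0453, range over the alternatives 0.0244 to 0.151). Its call ended without any 1 RT library, without NT 1, NT 2, NT 3 or NT 4, with HF left out of the fit, with only the libraries numbered 1 to 5, and with no filter beyond 1 count. The summed level of the 9 podocyte markers ran from 835 to 872 CPM in HF and from 848 to 893 CPM in RT, against 827 to 951 CPM in NT. That of the 6 mesangial and smooth muscle markers ran from 809 to 883 CPM in HF and from 780 to 859 CPM in RT, against 680 to 775 CPM in NT, with Des, Myh11 and Itga8 under 1 CPM. Acta2 alone had medians of 363, 364 and 266 CPM in HF, RT and NT, so this sum largely follows Acta2. Log2 fold changes of the 4 tested genes of this list ran from -0.002 to 0.483 in HF against NT (3 positive, median 0.175). In RT against NT they ran from -0.067 to 0.655 (3 positive, median 0.444). The part of these shifts in the changes of Atf5, Eif4ebp1, Vldlr and Psph was not tested. The 5 plasma cell markers, kept because such cells are rich in ER chaperones, summed to 214 to 237 CPM in HF, 216 to 244 CPM in RT and 228 to 248 CPM in NT. Nearly all of it was Sdc1, an epithelial syndecan as well, and Jchain, Mzb1 and Irf4 averaged under 1 CPM.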

How the data were processed

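Poly-A RNA from 17 libraries of E11 cells was read in pairs (2 x 150 bases) from non-directional libraries, per the labels' protocols. The authors deposited a table of raw counts, by gene and library, and did not normalize it. The submitters' processing notes name CASAVA, HISAT2 2.0.5, featureCounts 1.5.0-p3 and the builds GRCm39 and mm39 without giving their roles. The annotation release and the strand setting are not given in the sources used here. Without strand, reads of overlapping genes cannot be told apart. Symbols, exon lengths and overlaps came from GENCODE M21, on the older assembly GRCm38, so no gene position in the authors' build is given. A symbol was found for 52073 identifiers, and the unmatched ones took 0.58% of all counts.

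Genes were kept by filterByExpr, scaled by TMM and fitted in 1 model of all 17 libraries with 1 mean per surface (edgeR 4.0.16 in R 4.3.3, robust quasi-likelihood F test, two-sided). The common biological coefficient of variation was 0.0603. CPM use the TMM-scaled totals. Per-library branch means are log2 CPM with a prior count of 2. Alternatives were DESeq2 size factors, DESeq2 1.42.0, limma 3.58.1 voom, every gene with at least 1 count, a fit of only the compared surfaces, the replicate number as a block, the libraries numbered 1 to 5, each library left out in turn, and for branch means a prior count of 0.5 and medians.

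The 34 genes and the 12 other lists (131 genes, all matched) were chosen with earlier results of these data known. For each member past the threshold in any comparison and for Atf4, Ddit3, Asns, Trib3, Hspa5 and Xbp1, the lowest, median and highest HF and RT values and every NT value are given, and other members by group means. Of other lists at most 3 genes past the threshold are named. Calr, Nupr1, Phgdh, Psat1 and Cebpb were described further after their values were seen. Ddit3 has 2 identifiers in the table, and the one that holds the counts was used. No pair of the 40 same-surface pairs of libraries was identical or agreed within counting noise (chi-square per gene 2.76 to 12.5). NT 5 stood furthest from its surface, at 12.5, 11.0, 10.6 and 8.74 with NT 1 to NT 4, against 4.01 to 7.41 for the other NT pairs. The level of 1 podocyte marker is not reported here.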

Additional observations from a re-analysis of the deposited data

Results flagged for a closer look

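Of 102 combinations of a member gene and a surface, 1 held a library far from the others of its surface. Pdia4, a disulfide isomerase, had 203 CPM in HF 5, while the other 5 HF libraries had 210.0 to 214 CPM. The gap to its nearest neighbour was 0.63 of the whole range of HF. Chance alone marks about 5% of such combinations, and the cause was not tested.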

How the results depend on the processing

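Genes called numbered 354 for HF over NT, 32 for HF over RT and 603 for RT over NT. DESeq2 called 564 and 84 in the first and second comparison, the fit of every gene with at least 1 count 597 and 148, and the fit of only the compared surfaces 200 and 113. The libraries numbered 1 to 5 gave 15 in HF against RT. Leaving out 1 library gave 202 (NT 3) to 604 (NT 5) in HF against NT, with 203 without HF 4. In HF against RT it gave 14 (RT 1 or RT 3) to 89 (HF 3), with 16 to 18 without RT 2, HF 1, HF 4, HF 5 or HF 6. In RT against NT it gave 365 (NT 3) to 806 (NT 5).

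Same-numbered libraries of different surfaces correlated over 0.1 in 2 of 16 pairs (-0.0111 to 0.193). Their median correlation was 0.0458, against -0.0172 for pairs with different numbers, and 8 of 17 libraries correlated best with their own number. The main fit did not take the numbers as pairs because the labels state no pairing. These values do not settle whether the numbers mark pairs. With the replicate block, 637, 125 and 995 genes were called, and 1 ER chaperone gene in HF against RT (Calr) and 1 in RT against NT (Hspa5). Cebpb was also called in RT against NT (log2 fold change -0.17, adjusted p = 0.00829 by edgeR). Of the other lists, the block called 1 ER stress sensor or protease gene, 4 further ATF4-linked genes (against 2) and 1 further ER folding gene (against 0) in HF against NT, and 2 podocyte markers (against 0) in HF against RT. For RT against NT it called 1 eIF2 kinase or phosphatase gene, 1 ER-associated degradation gene, 3 ATF4-linked genes (against 2), 4 ER folding genes (against 2) and 2 podocyte markers (against 1).

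ER chaperone members called in HF against RT numbered 1, against 0, by DESeq2, without the filter and with only the compared surfaces, and 0 to 1 with 1 library left out. In RT against NT they numbered 1 by DESeq2 and limma voom, and 0 to 1 with 1 library left out. Amino acid response members called in RT against NT numbered 5, against 3, by DESeq2 and without the filter, and 1 (without NT 3) to 4 with 1 library left out.

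Fold changes near 0 changed sign, none of them called. With 1 library left out, log2 fold changes ran from -0.00739 to 0.036 for Xbp1 in HF against NT, from -0.000417 to 0.038 for Eif4ebp1 and from -0.012 to 0.038 for Trib3 in HF against RT. In RT against NT they ran from -0.067 to 0.016 for Atf4, from -0.021 to 0.054 for Ddit3 and from -0.024 to 0.031 for Asns, which had -0.000859 with the libraries numbered 1 to 5. The causes were not tested. The amino acid minus ER chaperone difference kept its sign in HF against NT and in HF against RT under every alternative run. In RT against NT the group means were nearly equal (-0.928 and -0.93), so no sign is read there. Slc7a11, with as few as 39 counts, is limited by depth.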
